A study of Mus musculus with 8 samples.

Results

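Gene expression in mouse CD4 T cells with a T cell-specific deletion of Smad2 was compared with that in wild-type CD4 T cells, across all genes of an Affymetrix array. The 2 arrays labelled Smad2KO (Smad2del/del) were set against the 2 labelled WT, 4 of the 8 arrays in the series. They formed 2 pairs, the first of cells cultured without TGF-b and the second of cells cultured with TGF-b at 2 ng/ml. The remaining arrays held Smad3KO cells (Smad3-/-) and Smad2KO_Smad3het cells (Smad2del/del Smad3+/-), each without and with TGF-b. All mice were labelled C57BL/6J, and their age and the driver of the conditional deletion were not stated in the sources used here. In every culture, naive CD4 T cells sorted from spleen (CD25 negative, CD44 low, CD62L high) were stimulated for 24 h with antibodies to CD3e and CD28, together with IL-2 and antibodies that neutralise IFN-g and IL-4.

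The receptor kinases for TGF-b and activin phosphorylate Smad2 and Smad3, a pair of transcription factors. Once phosphorylated they bind Smad4, enter the nucleus and regulate genes together with other DNA-binding proteins. In CD4 T cells TGF-b restrains activation and Il2 transcription, and it supports the induction of Foxp3. Differences in level between Smad2KO and WT cells cover whatever differed between these cultures before and after stimulation, in the presence of TGF-b or in its absence. The labels do not say how many animals gave each culture, so a difference between pairs of arrays measures the spread between these cultures only.

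Signals were scaled to an equal 2% trimmed mean per array. Values under a floor of 32.5, the median scaled signal, were set to the floor before log2 was taken, and 9465 genes whose highest signal reached 2 times the floor on at least 1 of the WT, Smad2KO and Smad3KO arrays were tested. A gene was called when Smad2KO and WT differed at least 1.5-fold in the same direction in both pairs. Where the dimmer signal lay under the floor the fold is a bound and is written as "at least". A gene with several tested probe sets was represented by the brightest on average.

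Marker genes were read as a check of the cell type. All 7 CD4 T cell markers on the array were bright (at 2 times the floor or more on at least 1 of the 4 arrays), with summed signals of 26479 and 28615 on the Smad2KO arrays and 26389 and 27627 on the WT arrays (without and with TGF-b in each case). None of 8 B cell, 4 NK cell or 3 erythroid markers was bright on these 4 arrays. The myeloid markers had 1 bright member of 11, Csf1r, at up to 122, and both CD8 markers, Cd8a and Cd8b1, were bright, at up to 94.0. The CD8 markers summed to 144 and 132 on the Smad2KO arrays and 161 and 108 on the WT arrays. Markers of memory T cells summed to 2922 and 3836 on the Smad2KO arrays and 2530 and 4034 on the WT arrays. Fewer cells of a type and less RNA per cell cannot be told apart in such bulk samples. The probe sets for 18S ribosomal RNA differed, reading in the absence of TGF-b 35.0 to 79.5 on the Smad2KO array against 2614 to 4020 on the WT array, and in its presence 123 to 226 on the Smad2KO array against 70.7 to 184 on the WT array. The part of this in the results was not tested. The ratio of 3′ to 5′ probe sets was 1.12 to 1.19 for actin and 0.785 to 0.835 for Gapdh on these 4 arrays. The other arrays with deleted Smad2, those of Smad2KO_Smad3het cells, were unlike the other 6, with rank correlations to them of 0.659 to 0.693 against 0.907 to 0.928 among the 6. Their median scaled signals were 103 and 107, against 30.7 to 35.6 on the 6, so their levels are not on a like scale. Their values are given only beside individual genes.

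The deleted gene itself did not separate the genotypes on these arrays. Smad2 read 1155 and 1046 on the Smad2KO arrays without and with TGF-b, and 1068 and 1031 on the WT arrays. A second Smad2 probe set read 103 and 90.5 on the Smad2KO arrays and 66.4 and 84.7 on the WT arrays. On the Smad3KO arrays, Smad3 read 614 and 730, against 149 and 548 on the WT arrays. The sources used here do not say where these probes lie relative to the deleted exons, so neither gene checks the labels, and the genotype names below are those of the labels. Xist, the noncoding RNA of the inactive X chromosome in females, read 5931 and 6256 on the Smad2KO arrays and 4407 and 6164 on the WT arrays. It read 63.3 and 97.8 on the Smad2KO_Smad3het arrays. The probe sets of the Y-linked genes Kdm5d, Eif2s3y and Uty lay at or below 35.9 on the Smad2KO, WT and Smad3KO arrays. The Smad2KO and WT cultures therefore both read as female.

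Of the 9465 genes, 71 were higher in Smad2KO in both pairs (0.75%) and 118 were lower (1.25%), 189 in all (2%). Single pairs gave more genes. Without TGF-b, 276 genes were at least 1.5-fold higher (2.92%) and 323 lower (3.41%), and with TGF-b 350 were higher (3.7%) and 498 lower (5.26%). Over 8318 genes bright on all 4 arrays, whether called or not, the robust SD of log2 ratios was 0.164 without and 0.222 with TGF-b. The median log2 ratio over all genes was 0.003 without and -0.03 with TGF-b. Of the 189 called genes, 142 lay above the floor on all 4 arrays and 47 had at least 1 value under it. In 164 of the 189 the 2 pairs gave folds within 1.5-fold of each other. At 2-fold in both pairs 17 genes were higher and 29 lower, and at 4-fold in both pairs 2 were higher and 3 lower. Calls were more frequent among dim genes: 99 of the 2265 genes whose brightest of the 4 signals was under 200 were called (4.37%), against 90 of 7200 brighter ones (1.25%).

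**Figure D1:**
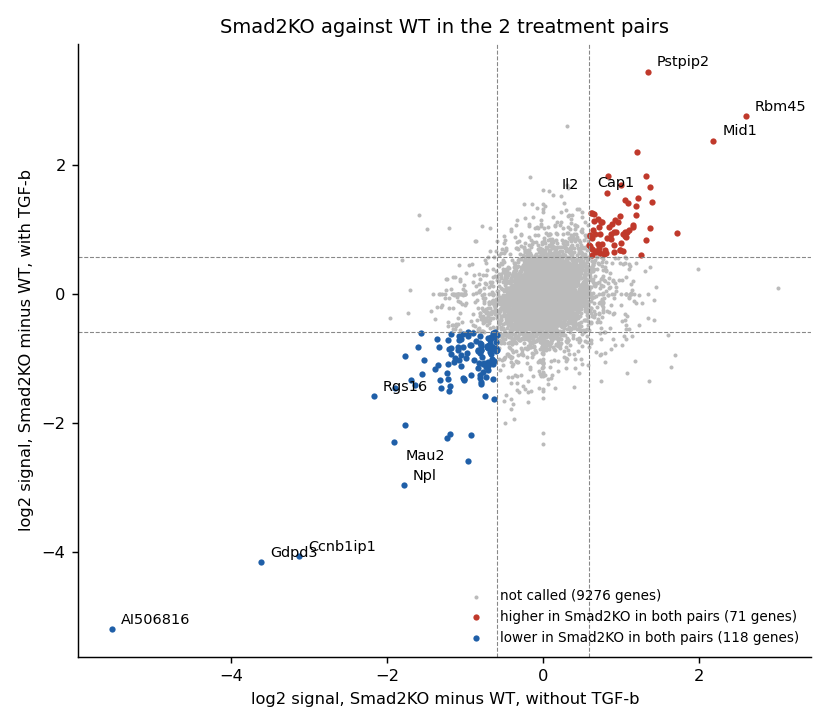
Log2 difference in scaled signal, Smad2KO minus WT, for each of 9465 genes in the pair without TGF-b (horizontal axis) and the pair with TGF-b (vertical axis), with dashed lines at 1.5-fold. The 71 genes called higher are red and the 118 called lower are blue, and AI506816, Gdpd3 and Ccnb1ip1 lie far to the lower left while Rbm45, Mid1 and Pstpip2 lie to the upper right.

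The difference between genotypes was also tested with limma on the 6 WT, Smad2KO and Smad3KO arrays, with treatment as a block and Benjamini-Hochberg adjustment over all 9465 genes. At an adjusted p under 0.05, 49 genes were higher in Smad2KO (0.518%) and 47 lower (0.497%), 96 in all (1.01%), and 886 had an unadjusted p under 0.05. The design left 2 residual degrees of freedom, and moderation over all genes brought the median total to 11.6, so these p-values rest largely on the spread shared across genes. With 1 array per genotype and treatment, the residual spread is the difference between genotypes in their response to TGF-b. The p-values therefore do not measure the spread between animals or repeat cultures. A gene whose difference depended on TGF-b has a wide spread in this fit and can fail it. By both criteria 62 genes were called, 24 higher and 38 lower, each in the same direction, and 34 genes passed limma without reaching 1.5-fold in both pairs. Both criteria read the same signals and are not independent of each other. With the Smad3KO arrays in place of the Smad2KO arrays, and the same WT arrays as controls, the 1.5-fold rule gave 54 genes higher (0.571%) and 119 lower (1.26%).

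Rbm45, an RNA-binding protein, had the largest increase by the smaller of its 2 ratios. It read 890 and 962 on the Smad2KO arrays without and with TGF-b, and 146 and 142 on the WT arrays. The Smad3KO arrays read 139 and 123. The Smad2KO_Smad3het arrays read 111 and 76.7, on a scale unlike that of the other arrays. Rbm45 was picked for large differences in both pairs, so its separation from WT adds no support. The differences were 6.08-fold and 6.80-fold, and limma gave a log2 difference of 2.68 (SE 0.152, adjusted p = 2.33e-06).

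Mid1, an X-linked ubiquitin ligase that associates with microtubules, followed. Its signals were 3279 and 4209 on the Smad2KO arrays and 721 and 808 on the WT arrays. The Smad3KO arrays, at 632 and 765, stayed near WT. The Smad2KO_Smad3het arrays read 811 and 991, on a scale unlike that of the other arrays. Mid1 was 4.55-fold and 5.21-fold higher (limma log2 2.28, adjusted p = 1.70e-07). Its other 2 probe sets were too dim to be tested.

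Cap1, a cyclase-associated protein that turns over actin filaments, was higher at 2 probe sets. It read 3953 and 3606 on the Smad2KO arrays and 1505 and 1337 on the WT arrays, with 2003 and 1747 in Smad3KO. Its folds of 2.63 and 2.698 were close in the 2 pairs (limma log2 1.41, adjusted p = 3.06e-06). A second Cap1 probe set read 3526 and 3022 on the Smad2KO arrays and 1218 and 1268 on the WT arrays.

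Pstpip2, an F-BAR adaptor protein best known from macrophages, had unequal differences in the 2 pairs. It read 82.6 and 398 on the Smad2KO arrays without and with TGF-b, and 15.2 and 36.4 on the WT arrays. It was thus at least 2.54-fold higher without TGF-b and 10.9-fold higher with it, and limma gave 2.40 (adjusted p = 0.111). The Smad3KO arrays read 9.45 and 28.5, while the Smad2KO_Smad3het arrays, the other cells with deleted Smad2, read 171 and 420. In the presence of TGF-b, its 2 other probe sets read 236 and 392.4 on the Smad2KO array, against 1.85 and 25.7 on the WT array. Both lay under the floor on the Smad2KO and WT arrays without TGF-b.

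Casp4, the inflammatory caspase that senses lipopolysaccharide in mice, read 688 and 224 on the Smad2KO arrays and 301 and 87.2 on the WT arrays. Each Smad2KO value lay above the WT value of its own treatment, though the Smad2KO array with TGF-b lay under the WT array without it. Casp4 was 2.29-fold and 2.57-fold higher (limma log2 1.28, adjusted p = 0.00651), and the Smad3KO arrays read 90.1 and 24.9. Zfp52, a zinc finger protein, read 2245 and 2276 on the Smad2KO arrays and 1050 and 851 on the WT arrays, and was 2.14-fold and 2.67-fold higher (limma adjusted p = 7.32e-05). Coro2a, an actin-binding coronin, read 236 and 263 on the Smad2KO arrays and 106 and 126 on the WT arrays (limma adjusted p = 0.0506). Rab6b, a small GTPase of Golgi transport, read 162 and 211 on the Smad2KO arrays and 69.9 and 45.7 on the WT arrays (limma adjusted p = 0.0553).

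The remaining 4 of the 12 largest increases were dim. Fads6, of the fatty acid desaturase family, read 94.7 and 116 on the Smad2KO arrays and 37.9 and 18.5 on the WT arrays, and passed limma (adjusted p = 0.0333). Micu3, a regulator of the mitochondrial calcium uniporter, read 81.7 and 91.2 on the Smad2KO arrays and 35.1 and 20.0 on the WT arrays. Gys1, a glycogen synthase, read 74.5 and 76.5 on the Smad2KO arrays and 12.9 and 14.5 on the WT arrays. 2610316D01Rik read 84.3 and 103 on the Smad2KO arrays and lay under the floor on both WT arrays. The last 3 did not pass limma (adjusted p = 0.0782, 0.244 and 0.251). On the Smad3KO arrays Fads6 read 80.1 and 66.5, Micu3 74.4 and 70.5, and Gys1 48.3 and 105. Fads6, Micu3 and Gys1 were thus above WT in both pairs there too, and their increases were not particular to Smad2KO. 2610316D01Rik read 102 and 30.1 on the Smad3KO arrays.

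The largest difference in either direction was at AI506816, a long noncoding RNA gene by its RefSeq entry. It read 14.5 and 3.19 on the Smad2KO arrays without and with TGF-b, and 1510 and 1187 on the WT arrays. Both Smad2KO signals lay under the floor. The Smad3KO arrays read 667 and 573, also at least 1.5-fold below WT in both pairs though far above Smad2KO. The Smad2KO_Smad3het arrays read 1205 and 1018. AI506816 was at least 46.5-fold lower without TGF-b and at least 36.5-fold lower with it (limma log2 -5.36, SE 0.147, adjusted p = 2.33e-09). limma was run on floored signals, so its log2 difference is a bound here too. Both Smad2KO values were set to the same floor, so the SE and p do not measure the spread between them. The same holds for Gdpd3, Ccnb1ip1, Npl, Dapk1 and 1700003E16Rik below. Like Rbm45, AI506816 was read by 1 probe set only.

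Gdpd3, of the glycerophosphodiester phosphodiesterase family, read 16.6 and 11.98 on the Smad2KO arrays and 399 and 579 on the WT arrays. It was at least 12.3-fold and at least 17.8-fold lower (limma log2 -3.89, adjusted p = 1.48e-06). The Smad3KO arrays read 274 and 257, and the Smad2KO_Smad3het arrays 122 and 69.5. Ccnb1ip1, a ubiquitin ligase known for its role in meiotic crossing over, read 17.7 and 13.9 on the Smad2KO arrays and 284 and 544 on the WT arrays. It was at least 8.75-fold and at least 16.7-fold lower (limma log2 -3.60, adjusted p = 1.09e-05). Here the Smad2KO_Smad3het arrays read 16.1 and 75.2, under their own medians, and the Smad3KO arrays were high, at 556 and 688.

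Rgs16, which shortens G protein signals from chemokine and other receptors, was the brightest of the 12 genes with the largest decreases. It read 824 and 1131 on the Smad2KO arrays and 3707 and 3382 on the WT arrays. The Smad3KO arrays, at 2519 and 3178, lay below WT and well above Smad2KO, and the Smad2KO_Smad3het arrays read 389 and 525. Rgs16 was 4.50-fold and 2.99-fold lower (limma log2 -1.87, SE 0.131, adjusted p = 0.000147). Of its 2 other probe sets, the first read 311 and 564 on the Smad2KO arrays and 1508 and 1679 on the WT arrays and met the 1.5-fold rule. The second read 611 and 1110 on the Smad2KO arrays and 2317 and 1580 on the WT arrays, and fell short of 1.5-fold with TGF-b.

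Nt5e encodes CD73, the surface enzyme that makes adenosine, and was the only gene among the 12 largest decreases that belonged to a biological list. It read 32.8 and 815 on the Smad2KO arrays without and with TGF-b, and 103 and 2154 on the WT arrays. The gene was high on both arrays with TGF-b, and lower in Smad2KO at each treatment, by 3.13-fold and 2.64-fold (limma log2 -1.53, adjusted p = 0.000763). The Smad3KO arrays, at 47.8 and 828, lay beside Smad2KO. A second Nt5e probe set read 15.7 and 287 on the Smad2KO arrays and 38.5 and 610 on the WT arrays, so that only the pair with TGF-b reached 1.5-fold after flooring.

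Vcl, vinculin, which links integrins to actin, read 71.8 and 111 on the Smad2KO arrays and 268 and 305 on the WT arrays (3.74-fold and 2.74-fold lower, limma adjusted p = 0.000565). Npl, a lyase of sialic acid breakdown, read 3.12 and 3.71 on the Smad2KO arrays and 112 and 254 on the WT arrays (at least 3.45-fold and at least 7.81-fold lower, limma adjusted p = 0.00422). Dapk1, a kinase linked to cell death, read 24.2 and 23.8 on the Smad2KO arrays and 111 and 133 on the WT arrays (limma adjusted p = 0.00531). Like the other genes with the largest differences, these 3 were picked for large differences in both pairs. Their separate Smad2KO and WT ranges therefore add no support. Mau2, a subunit of the cohesin loader, read 56.8 and 38.6 on the Smad2KO arrays and 214 and 188 on the WT arrays (limma adjusted p = 0.000763). None of the other 3 tested Mau2 probe sets met the rule. Nat9, an acetyltransferase, read 86.2 and 99.2 on the Smad2KO arrays and 215 and 248 on the WT arrays (limma adjusted p = 0.0078). Haghl and 1700003E16Rik completed the 12 and did not pass limma (adjusted p = 0.0722 and 0.101). On the Smad3KO arrays Nat9 read 139 and 122, and 1700003E16Rik 11.0 and 45.2. Nat9, 1700003E16Rik, AI506816 and Nt5e were at least 1.5-fold below WT in both pairs there too. The decreases of these genes were thus not particular to Smad2KO.

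**Figure D2:**
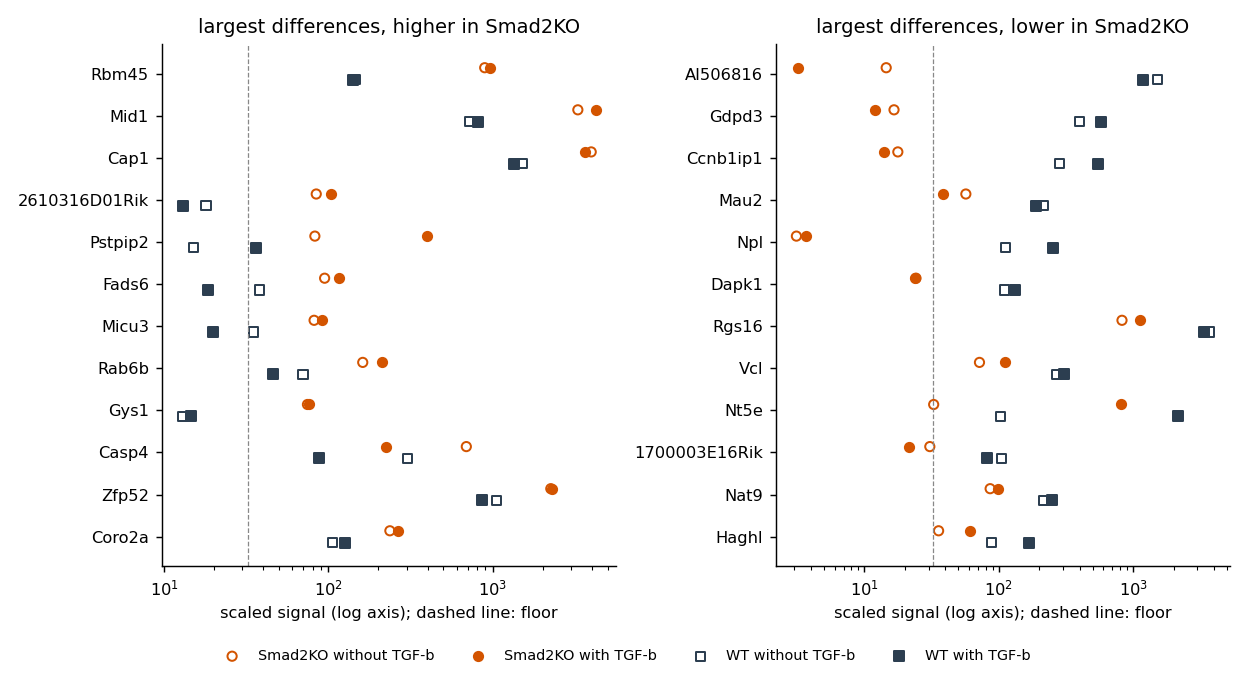
Scaled signal on a log axis for the 12 genes with the largest increases (left) and the 12 with the largest decreases (right), with open symbols for arrays without TGF-b, filled symbols for arrays with TGF-b, orange circles for Smad2KO and dark squares for WT, 1 array per symbol. The dashed line is the floor of 32.5, and both Smad2KO values of AI506816, Gdpd3, Ccnb1ip1, Npl, Dapk1 and 1700003E16Rik lie to its left.

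Several bright genes had smaller differences with small limma p-values. Among the increases, Mettl23, a methyltransferase, read 906 and 1039 on the Smad2KO arrays and 423 and 518 on the WT arrays (limma adjusted p = 0.000429). Ptp4a2, a phosphatase, read 4729 and 4960 on the Smad2KO arrays and 2968 and 2608 on the WT arrays (limma adjusted p = 0.000763). None of its 3 other tested probe sets met the 1.5-fold rule, and 1 of them lay the other way, at 2843 and 2430 on the Smad2KO arrays and 3446 and 3225 on the WT arrays. Tpd52, which takes part in vesicle traffic, read 767 and 832 on the Smad2KO arrays and 371 and 444 on the WT arrays (limma adjusted p = 0.000934). Trmt1, a tRNA methyltransferase, was 1.69-fold and 2.16-fold higher and the unnamed gene 2700038G22Rik 1.80-fold and 2.06-fold higher. Neither of the 2 other Trmt1 probe sets met the rule. Rpgrip1, a ciliary protein of photoreceptors, read 5130 and 5022 on the Smad2KO arrays, 2584 and 3119 on the WT arrays and 1046 and 1102 on the Smad3KO arrays. Among the decreases, Zfp593, a zinc finger protein, read 1071 and 992 on the Smad2KO arrays and 2474 and 2806 on the WT arrays (limma log2 -1.35, adjusted p = 2.03e-05). A second Zfp593 probe set was nearly level, at 120 and 115 on the Smad2KO arrays and 122 and 131 on the WT arrays. Supt16, a subunit of the histone chaperone FACT, read 699 and 736 on the Smad2KO arrays and 1626 and 1560 on the WT arrays (limma log2 -1.15, adjusted p = 7.83e-05). The Smad3KO arrays lay on the other side of WT for Supt16, at 2783 and 2466. Its second probe set read 167 and 263 on the Smad2KO arrays and 947 and 814 on the WT arrays.

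Genes on either side of the 1.5-fold threshold were close in value. The 3 called genes nearest the threshold were Zfp934, Usp36 and Ppp2r3a among the increases, with smaller log2 ratios of 0.59, 0.60 and 0.61, and Synj2, Bst2 and D2hgdh lay just outside at 0.58 each. Among the decreases Zfp493, App and Trim34a lay just inside, at -0.59 each, and Etv5, Cdk5 and Wfikkn2 just outside, at -0.58, -0.58 and -0.57.

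Agreement between probe sets was examined because an allele of another strain can change how 1 probe set binds without a change in the level of the RNA. Of the 189 called genes, 135 had a single tested probe set and 54 had others. These 54 genes had 83 other tested probe sets, of which 25 met the 1.5-fold rule in the same direction, 54 had the same sign in both pairs and 1 met the rule in the opposite direction. At least 1 other probe set met the rule in 22 of the 54 genes (40.7%), all others met it in 15, and none did in 32. By direction this was 11 of 23 genes among the increases and 11 of 31 among the decreases. Of the 31 genes that also passed limma it was 15, and of the 23 that did not it was 7. The 15 genes called by both criteria and by another probe set were, among the increases, Cap1, Zfp52, Mettl23, Tpd52, Gbp2, Fto and Csrp1, and among the decreases Rgs16, Vcl, Supt16, Ddr1, Crebzf, 4632427E13Rik, Ifi27 and Sft2d2. The opposite case was Ctse, cathepsin E. Its main probe set read 899 and 934 on the Smad2KO arrays and 1450 and 1610 on the WT arrays, while a second read 200 and 327 on the Smad2KO arrays and 118 and 164 on the WT arrays. Which probe sets cross a strain difference was not tested.

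**Figure D3:**
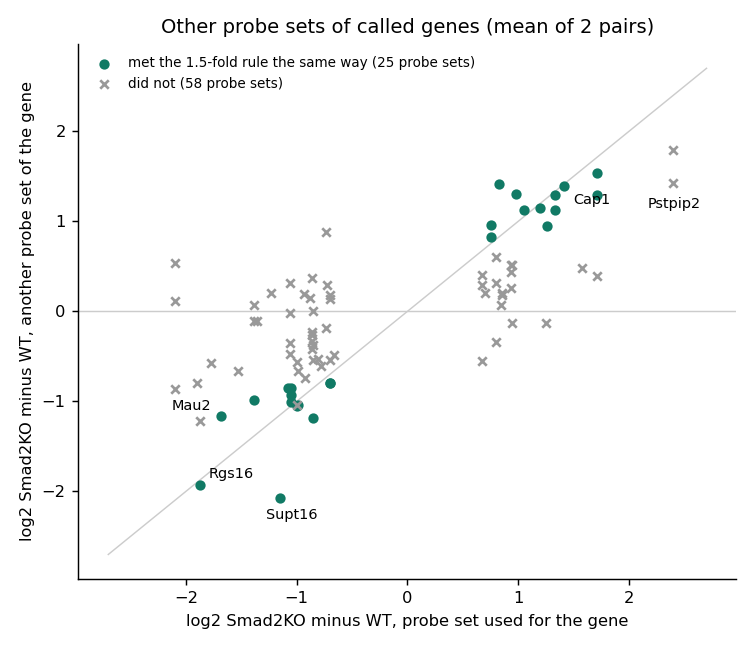
Each point is 1 of the 83 other tested probe sets of the called genes, with the log2 difference Smad2KO minus WT (mean of the 2 pairs) at the probe set used for the gene on the horizontal axis and at the other probe set on the vertical axis. The 25 green circles met the 1.5-fold rule in the same direction and the 58 grey crosses did not, and the Mau2 crosses lie near or above a difference of -1 while the Supt16 and Rgs16 circles lie near -2.

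The position of the called genes relative to one another was then read. In the RefSeq gene order 9448 tested genes could be placed, and 82 of the 189 called genes had another called gene within 10 tested genes on either side (43.4%). Of all 9448 placed genes, 2744 lay within 10 tested genes of a called gene. Of these 2744, 82 were called (2.99%), against 2% of all tested genes. Chains of 3 or more called genes, each within 10 tested genes of the next, numbered 12 and held 50 genes. In 6 of the 12 chains all genes moved the same way, and in all 6 that way was lower in Smad2KO. Of all 189 called genes 118 were lower. How many such chains would form without a link between neighbours was not tested. The distance of 10 genes was chosen after the signals had been seen.

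The chain with the most called genes held 7 among 10 tested neighbours, all lower in Smad2KO and all 7 past the limma threshold. Each chain was counted from its first to its last called gene, which raises the share called within it. Hikeshi, which carries Hsp70 into the nucleus, read 634 and 538 on the Smad2KO arrays and 1261 and 1064 on the WT arrays (limma adjusted p = 0.000359), and a second probe set, lower in both pairs, fell short of 1.5-fold without TGF-b. Eed, a core subunit of the Polycomb repressive complex, read 1923 and 1477 on the Smad2KO arrays and 3496 and 2442 on the WT arrays (limma adjusted p = 0.00289). Tmem126a and its neighbour Tmem126b encode mitochondrial membrane proteins that take part in complex I assembly. Tmem126a read 1788 and 1173 on the Smad2KO arrays and 3200 and 2146 on the WT arrays, and Tmem126b read 45.9 and 49.0 on the Smad2KO arrays and 135 and 116 on the WT arrays. Crebzf, a basic leucine zipper protein, read 294 and 293 on the Smad2KO arrays and 620 and 594 on the WT arrays. Ccdc90b and 4632427E13Rik were 1.73-fold and 2.08-fold lower without TGF-b and 1.74-fold and 1.92-fold lower with it. The 3 uncalled genes between them, 2310010J17Rik, Sytl2 and Pcf11, were also below WT in both pairs, with limma log2 differences of -0.68, -0.49 and -0.56. On the Smad3KO arrays Tmem126b, at 88.2 and 79.9, and Crebzf, at 513 and 437, lay between Smad2KO and WT in both pairs. Hikeshi, at 1405 and 1246, and Tmem126a, at 3355 and 2228, lay above WT in both pairs there. Ccdc90b and 4632427E13Rik lay near WT on the Smad3KO arrays, at 455 and 479 and at 335 and 370, and Eed read 3335 and 3134.

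Of the other 11 chains, 5 were lower throughout and 6 held both directions. Around Ccnb1ip1, 6 of 30 tested neighbours were called. Lgals3, Ccnb1ip1 and Supt16 were lower and Gm26782, Rpgrip1 and Gm30214 higher. Around Zfp52, 6 of 20 were called. The zinc finger genes Zfp52, Zfp948, Zfp994 and Zfp213 were higher together with Paqr4, while Tnfrsf12a was lower. Among 11 tested neighbours the interferon-inducible Ifi27, Ifi27l2a and Ifi27l2b were lower, as was Lgmn, a lysosomal protease. Ifi27l2a read 711 and 618 on the Smad2KO arrays and 1239 and 1623 on the WT arrays (limma adjusted p = 0.00254). Rgs16 stood in a chain with Npl and Mr1, which presents vitamin metabolites to MAIT cells, 3 called of 5. Trim30a, Trim12a and Trim34a, of a family of antiviral ubiquitin ligases with near-identical members, were 3 called of 4. Trim30a read 389 and 414 on the Smad2KO arrays and 742 and 713 on the WT arrays (limma adjusted p = 0.00254), and its second probe set did not meet the rule. Probe sets of such families can bind more than 1 member, so the Ifi27 and Trim genes are uncertain as separate observations.

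**Figure D4:**
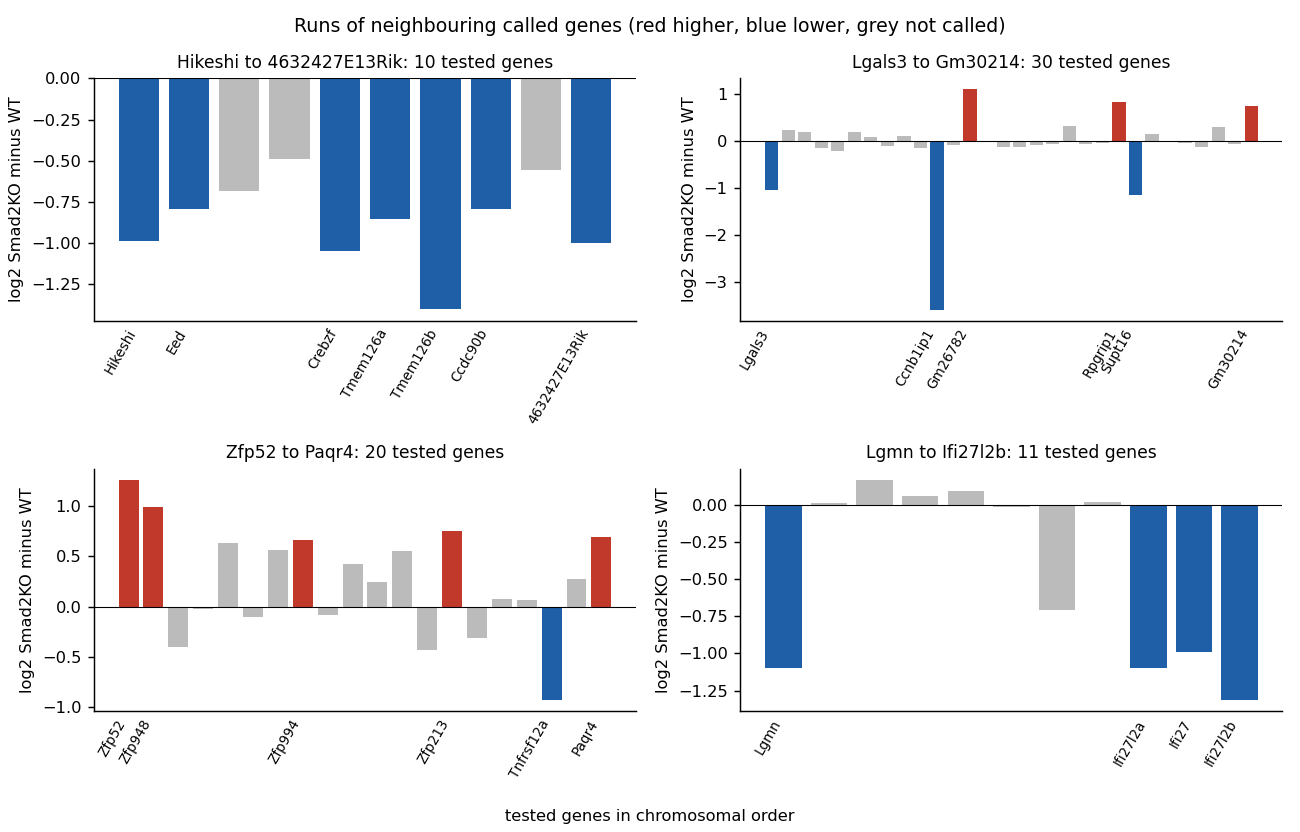
Log2 difference in signal, Smad2KO minus WT (mean of the 2 pairs), for all tested genes in 4 stretches of neighbouring genes, in chromosomal order, with called genes in red (higher) or blue (lower) and the others in grey. In the stretch from Hikeshi to 4632427E13Rik all 10 bars point down, whereas the stretches around Ccnb1ip1 and Zfp52 hold both directions.

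A conditional allele made in cells of another strain can carry flanking sequence of that strain, so the genes near Smad2 were read separately. Of 78 tested genes nearest to Smad2 (50 before it and 28 after it in the gene order) 4 were called (5.13%), against 2% of all genes. Pstpip2 and Pmaip1 were higher and Bvht and Prelid3a lower, and none of the 4 passed limma. Pmaip1, the cell death gene Noxa, read 168 and 201 on the Smad2KO arrays and 103 and 89.2 on the WT arrays (limma adjusted p = 0.0789). Bvht read 16.7 and 20.5 on the Smad2KO arrays and 66.3 and 49.8 on the WT arrays, close to the floor. Pstpip2 was the 6th tested gene from Smad2, and none of the 5 genes between them was called. Of those 5, Hdhd2 stood lowest, with 298 and 341 on the Smad2KO arrays and 404 and 537 on the WT arrays. The whole chromosome that holds Smad2 had 7 called genes of 229 (3.06%), and over 20 chromosomes with at least 200 tested genes the share ran from 0.587% to 3.45%. Of 10 tested genes from a list of genes known to vary between mouse strains, 1 was called, Wdfy1, at 116 and 97.3 on the Smad2KO arrays and 190 and 156 on the WT arrays (limma adjusted p = 0.157). Whether any called gene lies in sequence of another strain was not tested, and the deletion of Smad2 and such sequence cannot be told apart in this design.

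Genes of the TGF-b pathway and of T cell programmes were read as lists. Over 19 lists with 235 tested genes in all, 4 genes were higher and 4 lower by the 1.5-fold rule, 8 in all (3.40%), beside 2% of all genes. By limma 5 were higher and 2 lower. Of 17 tested TGF-b target genes none met the 1.5-fold rule and 1 passed limma, with a median log2 difference of -0.21 beside -0.01 over all genes. That gene was Id2, an inhibitor of helix-loop-helix factors, which read 881 and 1989 on the Smad2KO arrays and 656 and 1043 on the WT arrays (limma log2 0.68, adjusted p = 0.0233). Smad7, the inhibitory Smad that TGF-b induces, read 152 and 437 on the Smad2KO arrays and 180 and 395 on the WT arrays, with overlapping ranges. None of 13 receptors and Smads met either criterion, and Smad4 read 1649 and 1683 on the Smad2KO arrays and 1549 and 1611 on the WT arrays. None of 23 T cell activation genes and none of 27 cell cycle genes met either criterion, with medians of 0.06 and -0.09. Lists of this length are too short for an absence of calls to set them apart from the 2% of all genes.

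Interferon-stimulated genes had 2 of 18 called higher and none lower, by either criterion, with a median of 0.21 beside -0.01 over all genes. Of all tested genes 0.75% were higher and 1.25% lower by the 1.5-fold rule, and 0.518% and 0.497% by limma. Whether so short a list differs from all genes was not tested. Gbp2, an interferon-induced GTPase, read 998 and 735 on the Smad2KO arrays and 562 and 247 on the WT arrays (1.77-fold and 2.97-fold higher, limma adjusted p = 0.00895), and its second probe set met the 1.5-fold rule too. Ifitm3, a membrane protein that restricts virus entry, read 407 and 113 on the Smad2KO arrays and 195 and 60.9 on the WT arrays (limma adjusted p = 0.0574). Bst2, which tethers budding virus, read 451 and 490 on the Smad2KO arrays and 301 and 288 on the WT arrays, and passed limma (adjusted p = 0.0279) while its ratio without TGF-b lay just under 1.5-fold. The Ifi27 and Trim genes that were lower were not members of this list.

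Among regulatory T cell genes 1 of 15 was called higher and 1 lower by the 1.5-fold rule, beside 0.75% and 1.25% of all genes. This list is likewise too short to be set apart by such counts. Besides Nt5e, Gpr83, an orphan receptor, read 174 and 526 on the Smad2KO arrays and 101 and 341 on the WT arrays (limma adjusted p = 0.532). A second Gpr83 probe set read 136 and 456 on the Smad2KO arrays and 144 and 324 on the WT arrays. That probe set lay the other way without TGF-b and reached 1.5-fold in neither pair. Izumo1r, folate receptor 4, passed limma at a smaller difference, with 1756 and 2243 on the Smad2KO arrays and 1242 and 1360 on the WT arrays (adjusted p = 0.0488). Foxp3, the regulatory T cell factor, read 24.7 and 288 on the Smad2KO arrays and 2.77 and 402 on the WT arrays. It was bright only with TGF-b in both genotypes, and met neither criterion. Stat4, which transmits IL-12 signals, read 760 and 248.5 on the Smad2KO arrays and 435 and 175 on the WT arrays (limma log2 0.66, adjusted p = 0.0466). Tbx21 and Ifng, the Th1 factor and cytokine, stayed at or under 65.3 on all 4 arrays, in cultures that held antibodies to IFN-g. The other list members called lower were Ccr4, a chemokine receptor of Th2 cells, Il6ra, the IL-6 receptor, and Insig1, which holds back cholesterol synthesis. Ccr4 was dim, at 34.6 and 90.4 on the Smad2KO arrays and 52.3 and 140 on the WT arrays (limma adjusted p = 0.557). Il6ra read 68.3 and 181 on the Smad2KO arrays and 133 and 283 on the WT arrays (limma adjusted p = 0.0967). The other tested Il6ra probe set did not meet the 1.5-fold rule. Insig1 read 446 and 456 on the Smad2KO arrays and 782 and 770 on the WT arrays (limma log2 -0.78, adjusted p = 0.00609). The other 12 tested cholesterol synthesis genes met neither criterion.

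Il2, the T cell growth factor that TGF-b represses, differed in 1 pair. It read 5537 and 1570 on the Smad2KO arrays without and with TGF-b, and 5067 and 539 on the WT arrays. Without TGF-b the genotypes were within 1.09-fold, and with TGF-b Smad2KO was 2.91-fold higher. The Smad3KO arrays read 5329 and 1729. Il2 was therefore not called (limma log2 0.84, adjusted p = 0.782), and its difference between pairs could not be tested with 1 array per genotype and treatment.

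**Figure D5:**
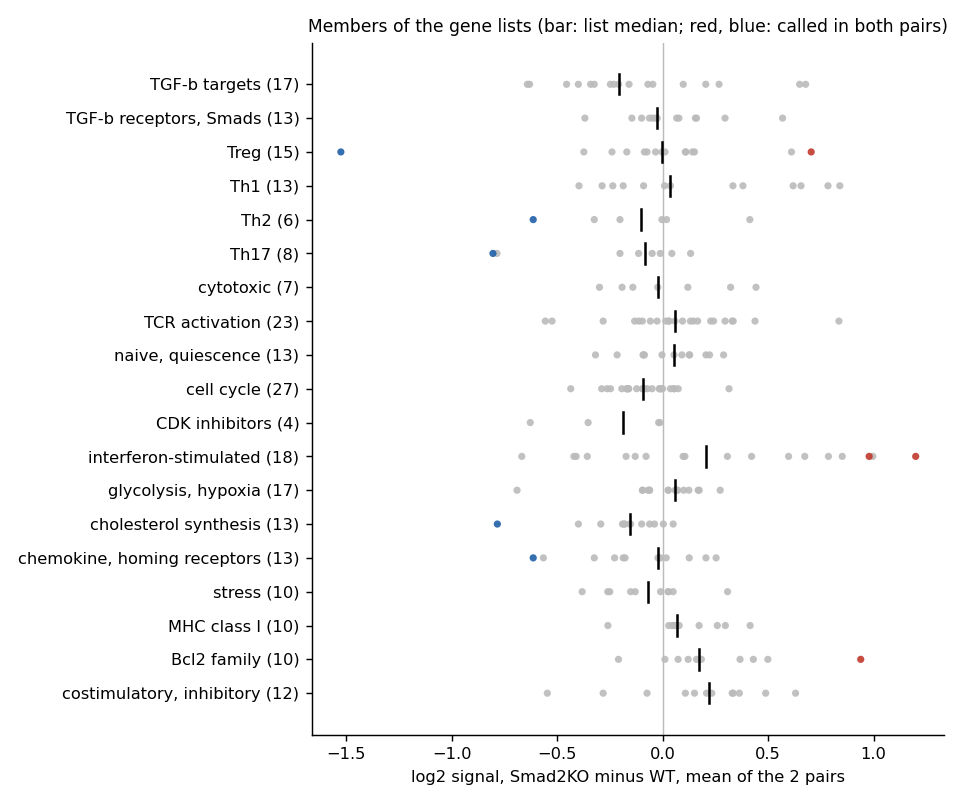
Log2 difference in signal, Smad2KO minus WT (mean of the 2 pairs), for every tested member of 19 gene lists, with the number of tested members in parentheses, a black bar at each list's median and colour for genes called in both pairs (red higher, blue lower). Nt5e, at -1.53 among the regulatory T cell genes, and Gbp2, at 1.20 among the interferon-stimulated genes, lie farthest from 0.

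Promoter sequence was read for the called genes, since Smad3 and Smad4 are known to bind the letters CAGACA and the palindrome GTCTAGAC. RefSeq promoters of assembly GRCm38.p6 were available for 56 of the 71 genes called higher and 95 of the 118 called lower. Within the 250 bases before the start, CAGACA or its reverse complement TGTCTG occurred in 10 of 67 promoters of genes called higher (14.9%) and in 20 of 114 of genes called lower (17.5%). It occurred in 13.1% of 9904 promoters of all tested genes and in 17.1% of 32851 promoters of all genes. GTCTAGAC, which reads the same on both strands and does not contain the shorter motif, occurred in 1 of 67 and 1 of 114, and in 0.263% of the promoters of tested genes and 0.167% of all promoters. A match describes the letters and is not a binding site.

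Promoters are shown for 4 of the 15 genes that were called by both criteria and by a second probe set, 2 per direction. They serve as examples, and how many of them hold a match does not describe the called genes as a set. From RefSeq with GRCm38.p6 coordinates these are Cap1 at chr4:122886077-122886326 on the minus strand, Zfp52 at chr17:21535289-21535538 on the plus strand, Rgs16 at chr1:153740103-153740352 on the plus strand and Vcl at chr14:20929148-20929397 on the plus strand. Each runs 5′ to 3′ to the base before the start, with matches to either motif in capitals. Cap1 and Rgs16 hold 1 match each, Zfp52 holds 2, of which 1 is the palindrome, and Vcl holds none in this window.
Cap1: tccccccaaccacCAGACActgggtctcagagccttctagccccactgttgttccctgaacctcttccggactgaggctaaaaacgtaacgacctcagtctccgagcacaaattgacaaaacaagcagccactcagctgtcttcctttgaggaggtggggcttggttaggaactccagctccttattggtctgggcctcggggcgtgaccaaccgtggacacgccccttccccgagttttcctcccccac
Zfp52: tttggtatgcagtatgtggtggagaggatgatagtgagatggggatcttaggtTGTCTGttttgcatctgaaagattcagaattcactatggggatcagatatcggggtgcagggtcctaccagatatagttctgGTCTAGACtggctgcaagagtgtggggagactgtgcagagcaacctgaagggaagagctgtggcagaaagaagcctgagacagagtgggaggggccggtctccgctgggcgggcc
Rgs16: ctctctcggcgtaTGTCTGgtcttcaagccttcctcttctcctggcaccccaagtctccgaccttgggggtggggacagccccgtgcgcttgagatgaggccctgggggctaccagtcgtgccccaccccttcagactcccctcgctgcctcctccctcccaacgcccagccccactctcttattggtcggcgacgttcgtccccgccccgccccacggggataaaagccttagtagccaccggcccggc
Vcl: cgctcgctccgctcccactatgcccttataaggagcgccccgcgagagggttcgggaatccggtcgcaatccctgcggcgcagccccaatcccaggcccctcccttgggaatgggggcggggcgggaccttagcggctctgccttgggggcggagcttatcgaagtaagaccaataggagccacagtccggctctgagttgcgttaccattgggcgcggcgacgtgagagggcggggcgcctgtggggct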

How the data were processed

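Probe set intensities were deposited by the authors on a linear scale for 8 single-colour Affymetrix arrays, and GCOS 1.4 is named in the submitters' processing notes, while the sources used here do not state its algorithm or settings. Of 45101 probe sets 64 were controls, and the platform annotation gave 34945 probe sets 1 symbol (18193 symbols) and 932 several, which were left out. RefSeq (GRCm38.p6) changed 0 symbols and gave the gene order and promoters. Scaling, the floor and the filter (2 times the floor) were set on the WT, Smad2KO and Smad3KO arrays, whose factors were 0.853 and 1.01 for Smad2KO and 0.909 and 1.26 for WT. 20149 probe sets passed, 17383 of them with 1 symbol. limma 3.58.1 in R 4.3.3 used trend and robust settings and treatment as a block on 6 arrays, and was tested on simulated data. Tables were made with Python 3.11.15 and pandas 2.3.3, and figures with matplotlib 3.10.9.

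The genes named were the 12 with the largest smaller ratio per direction, the 10 per direction with the smallest limma p, list members called by either criterion, the 3 nearest the threshold on each side, called genes near Smad2, and Smad2, Smad3, Smad4, Smad7, Foxp3, Il2, Ifng, Tbx21 and sex-linked genes. Others named were chosen after their values were seen. The members and lists were chosen with earlier results of these data known. Alternatives were quantile normalization, centring, other floors and filters, the mean of probe sets, 4 or 8 arrays, other folds, single pairs, limma without trend and robust settings, and no treatment block. Precision is limited by the number of arrays.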

Additional observations from a re-analysis of the deposited data

Results flagged for a closer look

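Some genes differed at least 1.5-fold in opposite directions in the 2 treatment pairs. Of the 9465 tested genes, 26 were higher in Smad2KO without TGF-b and lower with TGF-b, and 10 were lower without and higher with it, 36 in all. In single pairs, 2.92% of genes were higher and 3.41% lower without TGF-b, and 3.7% higher and 5.26% lower with it. How many genes would differ in opposite directions without any link between the pairs was not tested. With 1 array per genotype and treatment, the difference between the pairs was not tested. Hif3a, a relative of the hypoxia-inducible factors, read 83.1 without and 45.5 with TGF-b on the Smad2KO arrays, and on the WT arrays lay under the floor without and at 115 with it. Cphx3 read 101 and 41.0 on the Smad2KO arrays and 29.8 and 89.9 on the WT arrays, and Pth2, a peptide hormone gene, read 39.0 and 75.9 on the Smad2KO arrays and 117.4 and 11.4 on the WT arrays. These 3 genes were dim, with values near the floor of 32.5. Kif22, a mitotic kinesin, was brighter, at 794 and 1573 on the Smad2KO arrays and 2239 and 783 on the WT arrays.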

How the results depend on the processing

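Of the 189 genes called in both pairs, between 102 of 189 (floor at 2 times the median) and 189 of 189 (floor at the 25th percentile, or no filter) were called again in the same direction under 9 other preparations, and 0 in the opposite direction. Counts moved by over 1.5 times in these cases. The number called lower was 51 with the floor at 2 times the median (higher 51), 75 with a filter on mean signal and 72 on all 8 arrays. A 2-fold threshold gave 17 higher and 29 lower, a 1.3-fold threshold 211 and 266, the pair without TGF-b alone 276 and 323, and the pair with TGF-b alone 350 and 498. The limma counts, higher and lower, were 12 and 18 with the floor at 2 times the median, 5 and 8 with no filter, 163 and 121 on 4 arrays, 1 and 1 on all 8 arrays, 2 and 2 without trend and robust settings, and 4 and 6 without the treatment block. The causes were not tested. AI506816 and Mid1 passed limma under all 11 alternatives, Gdpd3 and Rbm45 under 10, and Stat4 and Izumo1r under 2 and 1. Called genes near Smad2 numbered 1 with the floor at 2 times the median, 2 with no filter and 2 on all 8 arrays, in place of 4. With no filter 20% of genes with other probe sets had one that met the rule, in place of 40.7%. Sft2d2 was reversed on all 8 arrays, at 0.18, where another of its probe sets was used. The treatment block is the pairing of the arrays, and the labels give no replicate numbers to pair by.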

Other observations

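Several immune genes outside the calls differed in 1 pair, and are given as values chosen after they were seen, with no test of the difference between pairs. Ccl3, an inflammatory chemokine, read 1464 without and 820 with TGF-b on the Smad2KO arrays, and 1219 and 308 on the WT arrays. Bcl2l11, the cell death gene Bim, read 999 and 494 on the Smad2KO arrays and 1045 and 260 on the WT arrays. Id3, a partner of Id2 in restraining E proteins, read 1565 and 1001 on the Smad2KO arrays and 1340 and 475 on the WT arrays. Iigp1, an interferon-induced GTPase, read 131 and 335 on the Smad2KO arrays and 106 and 104 on the WT arrays. In these 4 genes the array of Smad2KO cells with TGF-b lay above that of WT cells with TGF-b, by 2.67-fold for Ccl3, 1.90-fold for Bcl2l11, 2.11-fold for Id3 and 3.23-fold for Iigp1. Xcl1, a lymphocyte chemokine, differed in the other pair, where in the absence of TGF-b it read 348 on the Smad2KO array and 127 on the WT array, and in its presence 478 on the Smad2KO array and 442 on the WT array.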
